A study of Homo sapiens with 6 samples.

Results

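The genes described here are the receptors IGF1R, INSR and IGF2R, the adaptors IRS1 and IRS2, and the binding proteins IGFBP2, IGFBP3, IGFBP4 and IGFBP6. They are the 9 rows with these symbols among the 17318 genes listed for each library. Messenger RNA was measured in SNU216, a human gastric cancer line, 48 h after siRNA transfection. The groups were 3 libraries with the oxytocin receptor gene targeted (siOXTR) and 3 with the control siRNA (siControl), all from cells kept in RPMI1640 medium with fetal bovine serum. Sequences of the siRNAs are not analysed here, and a single line was used. Whether replicates are separate cultures is unstated, so every p-value reflects spread between libraries that may be technical only. The series title places the oxytocin receptor beside YAP, which switches on genes together with TEAD factors.

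Insulin-like growth factors and insulin act through the receptor tyrosine kinases IGF1R and INSR, which can also form hybrid receptors. The activated receptors phosphorylate the cytosolic adaptors IRS1 and IRS2, which recruit PI3K and so lead to AKT and mTOR, and FOXO factors are held out of the nucleus by AKT. IGF2R has no kinase domain. It removes IGF2 from the cell surface and, as the cation-independent mannose-6-phosphate receptor, carries lysosomal hydrolases from the Golgi. Binding proteins are secreted, hold IGFs outside the cell and are cut by proteases that release the ligand.

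The siOXTR cells had less mRNA of all 3 receptors and of IGFBP3 and IGFBP4, while the adaptors moved little. Levels are as deposited, in FPKM, a unit that divides fragments by transcript length and by the library total. Of the 9 genes, 8 reached a mean of 1 FPKM over the 6 libraries and were tested on log2(FPKM + 1) with limma. At an adjusted p under 0.05, 6 of the 8 fell, none rose and 2 did not pass. The background was 17.6% of 11550 tested genes lower and 42.2% higher. A log2 fold change of -1 or lower with an adjusted p under 0.05 was reached by 2 of the 8, IGF2R and IGFBP3, against 2.34% of tested genes. The median log2 fold change of the 8 was -0.74, against 0.13 for all tested genes. FPKM is relative to the library, and TMM scaling moved the median of all tested genes to 0.016. After that scaling 7 of the 8 were lower, against 24.2% of tested genes. The count at -1 or lower depends on such settings. IGFBP4 reached -1.08 after TMM scaling, and INSR -1.12 with a pseudocount of 0.1 in place of 1 FPKM. In bulk RNA, fewer cells with a transcript and less of it per cell cannot be told apart.

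The oxytocin receptor gene OXTR had 4.76, 4.65 and 5.34 FPKM in siOXTR libraries, against 39.37, 38.87 and 39.02 FPKM in siControl libraries, and every library followed its label. The summed FPKM per library was 446246 to 459595 in siOXTR and 417829 to 434167 in siControl, and sequencing depth is unknown. All 10 gastric epithelial markers looked up (among them EPCAM, KRT8 and GATA6) reached a mean of 1 FPKM. Their summed level was 8218 to 8376 FPKM in siOXTR libraries and 7157 to 8245 FPKM in siControl libraries. None of 7 fibroblast markers measured (of 8 looked up) did, with sums of 0.740 to 0.920 FPKM in siOXTR and 1.74 to 2.23 FPKM in siControl. None of 7 blood and endothelial markers measured (of 8) did either, with sums of 1.42 to 2.15 FPKM in siOXTR and 1.27 to 1.98 FPKM in siControl. The highest means over the 6 libraries were 0.802 FPKM for LUM (fibroblast) and 0.993 FPKM, just under 1, for PTPRC (blood). No marker of these 3 lists was at 0 in every library.

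The promoters of 4 of the genes are shown because they cover the largest fall (IGF2R), the kinase receptor with the higher level (IGF1R), the most abundant transcript (IGFBP3) and the adaptor that passed the test (IRS1). Each is the 250 bases before the RefSeq transcript start (GRCh38.p14), written 5′ to 3′ on the strand of the gene. The gene spans given below come from GENCODE, whose starts can differ, and by them the IGFBP3 window lies inside its gene. Windows of IGFBP6 and IGFBP2 searched below also reach into those genes. Capitals mark CACGTG, the E-box, in IGF2R (chr6:159968832-159969081, plus strand), GGGCGG or its complement, the GC box, in IGF1R (chr15:98648289-98648538, plus strand) and IGFBP3 (chr7:45921273-45921522, minus strand), and GGAATG, the core bound by TEAD factors, in IRS1 (chr2:226799821-226800070, minus strand).
IGF2R: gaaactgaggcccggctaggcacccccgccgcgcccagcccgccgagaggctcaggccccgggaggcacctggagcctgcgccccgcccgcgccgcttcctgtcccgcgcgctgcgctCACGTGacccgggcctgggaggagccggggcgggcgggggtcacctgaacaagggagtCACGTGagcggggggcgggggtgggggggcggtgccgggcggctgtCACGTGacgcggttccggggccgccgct
IGF1R: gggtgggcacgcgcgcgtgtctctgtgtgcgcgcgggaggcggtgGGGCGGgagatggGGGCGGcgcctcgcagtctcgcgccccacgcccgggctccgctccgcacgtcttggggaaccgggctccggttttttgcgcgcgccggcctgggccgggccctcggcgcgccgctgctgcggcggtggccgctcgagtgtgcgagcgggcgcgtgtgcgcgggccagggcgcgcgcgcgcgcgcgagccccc
IGFBP3: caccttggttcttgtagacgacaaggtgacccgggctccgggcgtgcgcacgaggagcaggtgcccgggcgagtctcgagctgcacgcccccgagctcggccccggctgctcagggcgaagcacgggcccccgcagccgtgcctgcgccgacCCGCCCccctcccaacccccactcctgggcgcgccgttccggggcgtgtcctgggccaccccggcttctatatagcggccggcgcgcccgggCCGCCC
IRS1: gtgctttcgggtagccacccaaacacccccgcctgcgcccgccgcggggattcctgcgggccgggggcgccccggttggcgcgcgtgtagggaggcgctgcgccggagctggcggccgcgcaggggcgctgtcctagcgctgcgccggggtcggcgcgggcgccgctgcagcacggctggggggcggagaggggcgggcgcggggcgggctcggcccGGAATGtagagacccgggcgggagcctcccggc
The motifs were chosen with these sequences in view and searched on both strands, with the palindromic E-box counted once per position, and no 2 different motifs overlapped in the windows of the 9 genes. IGF2R held 3 E-boxes, starting 132, 74 and 28 bases before the transcript start, and no window of the other 8 genes held one. E-boxes were present in 6.34% of 35116 RefSeq promoter windows of the same length. GGAATG was present in the windows of IRS1 and IGFBP6, against 11.9% of all windows, and the FOXO core GTAAACA in that of IGFBP6, against 2.98%. Each of the 9 genes had a window with a GC box, though the IGFBP2 window at chr2:216659317-216659566 held none. Of all windows 42.6% held a GC box, a share per window and not per gene. These matches are descriptions of the sequence and not of binding.

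**Figure D1:**
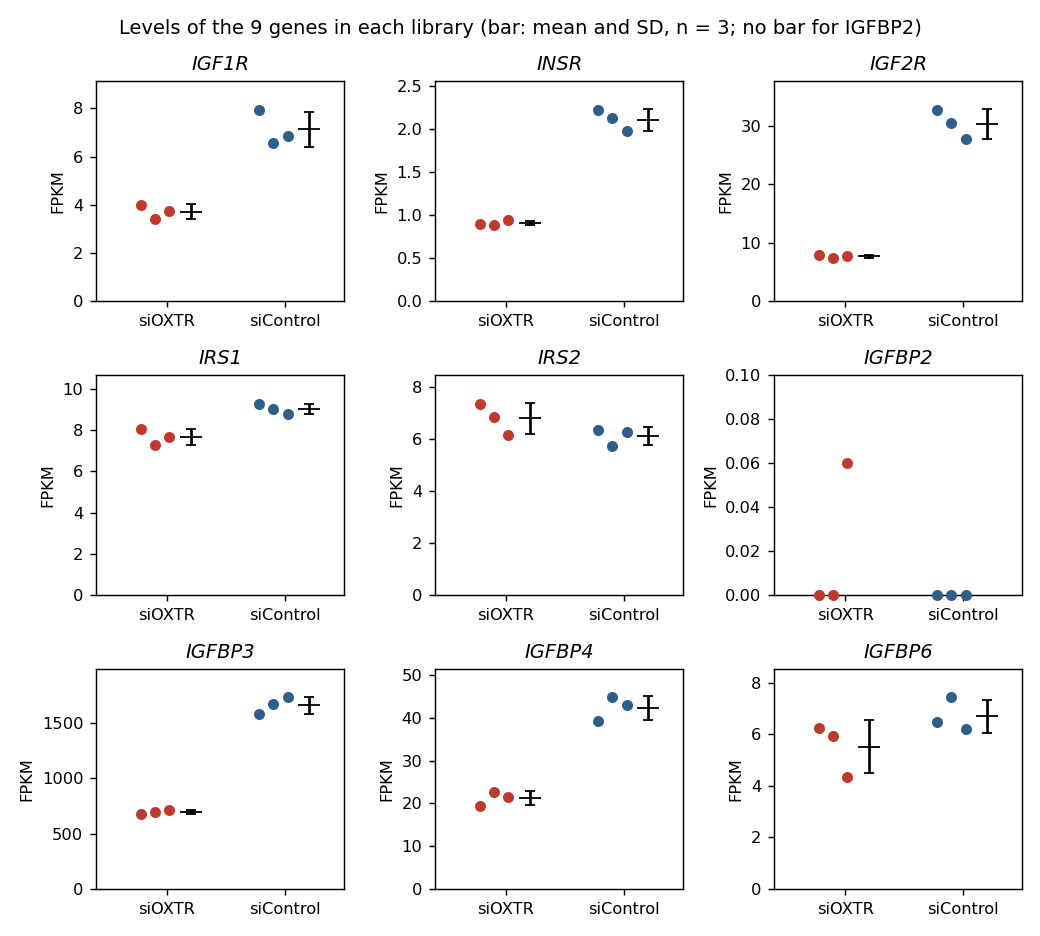
Levels of the 9 genes. Each panel gives FPKM on a linear axis from 0 with 1 point per library, siOXTR in red and siControl in blue, and the mean and SD of 3 libraries beside them; IGFBP2 has no mean because it was listed at 0 in 5 of the 6 libraries. In the panels of IGF1R, INSR, IGF2R, IRS1, IGFBP3 and IGFBP4 every siOXTR point is below every siControl point.

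All 3 receptor genes fell. IGF2R (Entrez 3482, chromosome 6 from 159969099 to 160113507, GRCh38) had 7.94, 7.43 and 7.67 FPKM in siOXTR libraries, against 32.7, 30.36 and 27.7 FPKM in siControl libraries. The groups were far apart, and the siOXTR mean was 25.4% of the siControl mean. On the log2 scale the change was -1.85 (limma adjusted p = 7.42e-10, SE 0.066), the 15th lowest of 11550 tested genes. Transcripts of AIRN, a non-coding gene, run antisense within IGF2R, and since the use of strand in counting is not given, reads of the pair cannot be told apart. IGF2R was above IGF1R and INSR in every library of both groups.

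IGF1R, the receptor kinase for IGF1 and IGF2, lies on chromosome 15 from 98648539 to 98964530, and annotated antisense genes overlap it, with the same limit on telling reads apart. It had 4.01, 3.41 and 3.74 FPKM in siOXTR libraries, against 7.94, 6.57 and 6.87 FPKM in siControl libraries. Replicate 1 was the highest library of each group, and the groups did not overlap. The log2 fold change was -0.78 (limma adjusted p = 5.68e-06, SE 0.079), a level 1.92-fold lower in siOXTR.

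INSR, the insulin receptor, lies on chromosome 19 from 7112255 to 7294034. It was the lowest of the 8 tested genes, with 0.9, 0.89 and 0.94 FPKM in siOXTR libraries, against 2.22, 2.12 and 1.97 FPKM in siControl libraries. The siOXTR libraries lay below 1 FPKM and the groups did not overlap. Its log2 fold change was -0.70 (limma adjusted p = 1.23e-05, SE 0.077). At this level the added 1 FPKM shrinks the value, and with a pseudocount of 0.1 the log2 fold change was -1.12, while the ratio of means was 2.31-fold lower. Gene-level values do not separate the INSR isoforms.

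The binding protein genes split. IGFBP3, which encodes the main carrier of IGFs in blood, lies on chromosome 7 from 45912245 to 45921874. It was by far the most abundant of the 9, with 678.5, 693.17 and 717.22 FPKM in siOXTR libraries, against 1578.46, 1671.25 and 1733.31 FPKM in siControl libraries. It stood between the 75th and 83rd highest of all genes in siOXTR libraries and between the 14th and 18th in siControl libraries. The log2 fold change was -1.25 (limma adjusted p = 4.67e-09, SE 0.058), or 2.39-fold lower. IGFBP4, an inhibitory binding protein cut by the protease PAPPA, lies on chromosome 17 from 40443461 to 40457731. It had 19.44, 22.67 and 21.57 FPKM in siOXTR libraries, against 39.15, 44.75 and 42.99 FPKM in siControl libraries. The groups did not overlap, and the level was 1.99-fold lower in siOXTR (log2 fold change -0.96, limma adjusted p = 2.22e-07, SE 0.069).

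IGFBP6, a binding protein that prefers IGF2, lies on chromosome 12 from 53097436 to 53102345. It had 6.26, 5.95 and 4.33 FPKM in siOXTR libraries, against 6.46, 7.43 and 6.19 FPKM in siControl libraries. Replicate 1 of siOXTR lay within the siControl range, and replicate 3 of siOXTR was the lowest of the 6. The log2 fold change of -0.25 (limma adjusted p = 0.0618, SE 0.11) did not pass the threshold. It passed after TMM scaling, with a log2 fold change of -0.36 (adjusted p = 0.0164, limma), and without siOXTR replicate 1, at -0.33 (adjusted p = 0.0232, limma), and without siOXTR replicate 3 it was -0.11. IGFBP2, on chromosome 2 from 216632828 to 216664436, was listed at 0 in all siControl libraries and in siOXTR replicates 1 and 2, and at 0.06 FPKM in siOXTR replicate 3. It was not tested.

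Relatives of the binding proteins that are not among the 9 were looked up in the same way. IGFBP5, which lies beside IGFBP2 on chromosome 2, had 2.24, 2.48 and 2.27 FPKM in siOXTR libraries, against 7.86, 7.54 and 6.73 FPKM in siControl libraries. Its log2 fold change of -1.33 (limma adjusted p = 2.06e-08, SE 0.073) was larger in size than that of IGFBP3, and the level was 3.17-fold lower. IGFBP1, IGFBP7 and IGFBPL1 averaged 0.133, 0.150 and 0.170 FPKM in siOXTR and 0.240, 0.267 and 0.233 FPKM in siControl, and were not tested. The 8 IGFBP genes summed to 707, 724.8 and 745.7 FPKM in siOXTR libraries, against 1633, 1732 and 1790 FPKM in siControl libraries. IGFBP3 held 95.9 ± 0.272% of that sum in siOXTR and 96.7 ± 0.166% in siControl (SD, n = 3 each). The share of IGFBP6 was 0.762 ± 0.161% in siOXTR and 0.390 ± 0.0419% in siControl. That of IGFBP4 was 2.92 ± 0.191% in siOXTR and 2.46 ± 0.106% in siControl. That of IGFBP5 was 0.321 ± 0.0193% in siOXTR and 0.431 ± 0.0529% in siControl. The groups did not overlap for any of these shares, a description only, because no like share over other gene sets was computed. IGFBP3 dominates the sum, so a gene that fell less than IGFBP3 gains share without rising.

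The 2 adaptor genes had smaller log2 fold changes than the 3 receptors. IRS1, the adaptor first found as a substrate of the insulin receptor, lies on chromosome 2 from 226731317 to 226799759. It had 8.03, 7.27 and 7.66 FPKM in siOXTR libraries, against 9.28, 9.03 and 8.76 FPKM in siControl libraries. The groups did not overlap, but by a small margin, and IRS1 was 1.18-fold lower (log2 fold change -0.21, limma adjusted p = 0.011, SE 0.062). Without siOXTR replicate 2 it did not pass (log2 fold change -0.18, adjusted p = 0.0603, limma). IRS2, the second widely expressed adaptor, lies on chromosome 13 from 109752698 to 109786568. It had 7.37, 6.85 and 6.17 FPKM in siOXTR libraries, against 6.36, 5.73 and 6.29 FPKM in siControl libraries. The groups overlapped, and the log2 fold change of 0.13 (95% interval -0.031 to 0.29, adjusted p = 0.148, limma) did not pass the threshold. After TMM scaling it was 0.019.

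In total, every siOXTR library was below every siControl library for 6 of the 8 tested genes, against 19.2% of all tested genes. The order of levels also differed between groups. In siOXTR it ran IGFBP3, IGFBP4, IGF2R, IRS1, IRS2, IGFBP6, IGF1R, INSR and IGFBP2 from high to low, and neighbours from IGF2R to IGFBP6 overlapped. In siControl it ran IGFBP3, IGFBP4, IGF2R, IRS1, IGF1R, IGFBP6, IRS2, INSR and IGFBP2, and neighbours from IGF1R to IRS2 overlapped. FPKM is per length, so these levels can be set side by side, but only roughly. The annotation that set the lengths and the use of strand are not given.

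**Figure D2:**
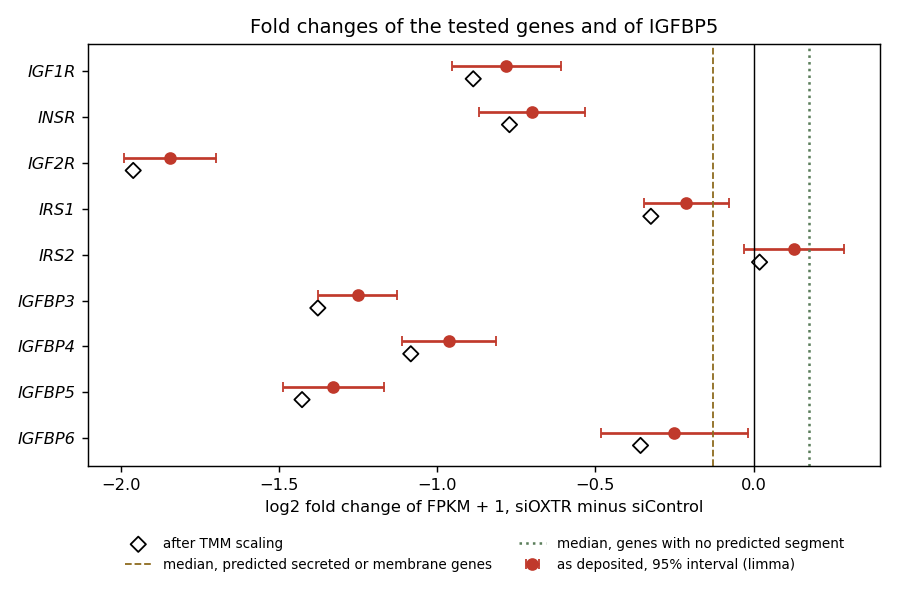
Fold changes of the 8 tested genes and of IGFBP5. The x axis is the log2 fold change of FPKM + 1, siOXTR minus siControl; filled points are values as deposited with their 95% interval from limma, open diamonds are values after TMM scaling, and vertical lines are medians of tested genes by predicted class. IGF2R lies furthest left at -1.85, IRS2 is the only gene right of 0, and its interval of -0.031 to 0.29 spans 0.

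A ratio of 2 genes within a library does not depend on how the library was scaled. The ratio of IGF1R to IRS1 was 0.499, 0.469 and 0.488 in siOXTR libraries, against 0.856, 0.728 and 0.784 in siControl libraries. That of INSR to IRS1 was 0.112, 0.122 and 0.123 in siOXTR libraries, against 0.239, 0.235 and 0.225 in siControl libraries. Receptor transcript was lower relative to IRS1 in every siOXTR library, with log2 differences of -0.70 (SE 0.073) for IGF1R and -0.97 (SE 0.050) for INSR. The ratio of IRS1 to IRS2 was 1.13 ± 0.0969 in siOXTR and 1.48 ± 0.0928 in siControl, and that of IGF1R to INSR was 4.09 ± 0.326 in siOXTR and 3.39 ± 0.254 in siControl (SD, n = 3 each). None of the 4 ratios overlapped between groups. How often ratios of other gene pairs separate was not computed, so this is a description and no result about these genes. Of single tested genes, 19.2% had every siOXTR library below every siControl library. Each had an exact permutation p of 0.1 (two-sided), the smallest that 3 libraries against 3 can give, and 0.1 after adjustment over the 4, so none could pass a threshold of 0.05.

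**Figure D3:**
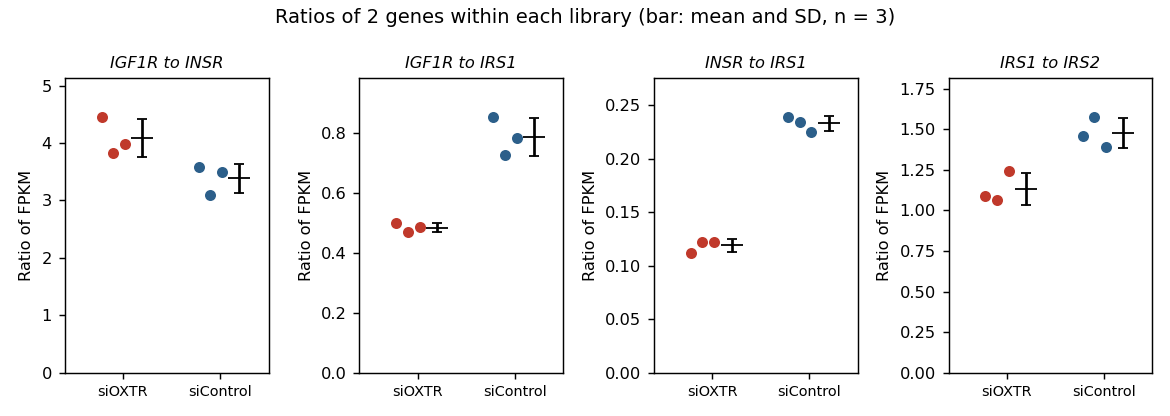
Ratios of 2 genes within each library. Each panel gives a ratio of FPKM on a linear axis from 0 with 1 point per library, siOXTR in red and siControl in blue, and the mean and SD of 3 libraries beside them. IGF1R to IRS1 averaged 0.486 in siOXTR and 0.789 in siControl. In no panel do the groups overlap, and ratios of other gene pairs were not computed.

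The receptors and binding proteins share entry into the secretory pathway, which the adaptors lack. A prediction from protein hydropathy (a signal peptide or a membrane-spanning stretch) put all 7 receptor and binding protein genes in a secreted or membrane class and left IRS1 and IRS2 without such a segment. This class was already known to move with the contrast, so the members' place in it is a description and no support. Of 3317 tested genes in it 1527 (46%) fell and 678 (20.4%) rose, with a median log2 fold change of -0.13. Among the members in it, 5 of the 6 tested fell. Of 7956 tested genes without a segment 480 (6.03%) fell and 4059 (51%) rose, with a median of 0.17. Within the class, counted from the lowest fold change, IGF2R was 15th, IGFBP3 114th, IGFBP4 276th, IGF1R 472nd, INSR 579th and IGFBP6 1372nd of 3317. Among genes without a segment IRS1 was 354th and IRS2 3191st of 7956. By these ranks IRS1 stood nearer the low end of its own class than IGF1R, INSR, IGFBP4 or IGFBP6 did of theirs. The ranks rest on FPKM + 1, which shrinks the change of INSR. With a pseudocount of 0.1 INSR fell more (-1.12) than IGF1R (-0.92), and class ranks were not computed at that setting. The prediction makes errors, and it left the secreted proteins IGF1, IGF2 and PAPPA without a segment. It also put VPS29, TBC1D7, TSC1, TSC2 and RPTOR, of cytosolic complexes, in the secreted or membrane class. The same holds for the phosphatases INPP4B and PHLPP1 and the transcription factor FOXO1. Such errors enter the class counts of the lists below.

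**Figure D4:**
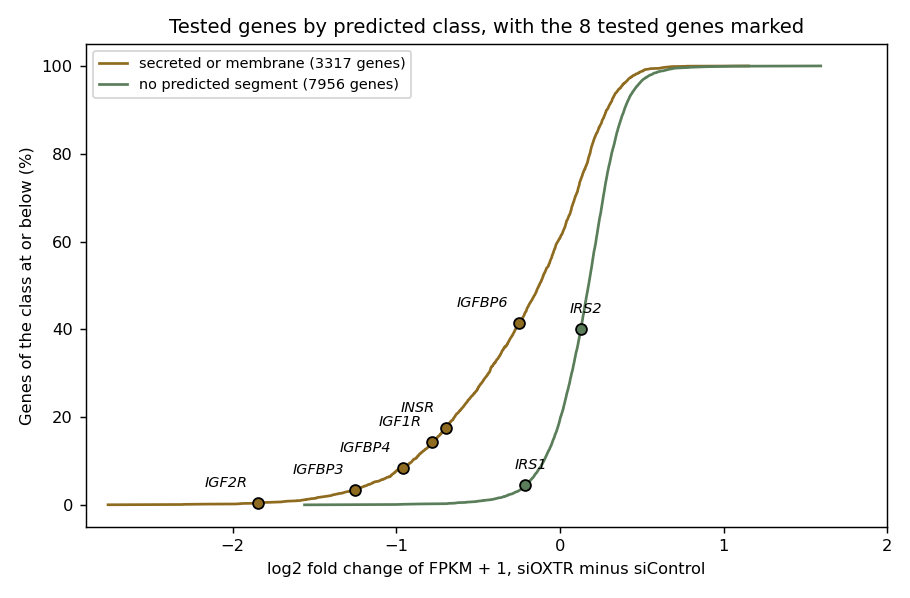
Tested genes by predicted class. The x axis is the log2 fold change of FPKM + 1, siOXTR minus siControl, and the y axis the percent of genes of the class at or below it, with the curve of 3317 secreted or membrane genes in brown and that of 7956 genes with no predicted segment in green. The 8 tested members are points on the curve of their class; IGF2R and IGFBP3 lie at the low end of the brown curve, and IRS2 lies below the middle of the green curve.

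By a rule based on likeness across the 6 libraries, the 3 tested genes with the highest Pearson r of log2(FPKM + 1) were listed for each gene that passed. The r values lay between 0.99562 and 0.99983 and rest mostly on the difference between the groups. IGF2R was most like CEMIP2, SLC6A6 and ATRN, IGF1R most like PCLO, BCORL1 and UBE4A, and INSR most like FN1, TM9SF4 and IFITM10. IGFBP3 was most like ARL6IP1, RMI2 and HPSE, IGFBP4 most like TSPAN15, IL15RA and STBD1, and IRS1 most like ITPR3, MYH9 and B3GALT5. CEMIP2 averaged 17.4 FPKM in siOXTR and 52.6 FPKM in siControl, and ARL6IP1 96.0 FPKM in siOXTR and 212 FPKM in siControl. A high r does not mean a change of like size. PCLO averaged 0.967 FPKM in siOXTR and 1.17 FPKM in siControl, near the filter of 1 FPKM. Its log2 fold change was -0.14, against -0.78 for IGF1R.

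The genes around these members were taken from lists of the pathway. Of 84 tested genes on those lists that are not members, 16 fell, 31 rose and 37 did not pass, with a median log2 fold change of 0.11. These are 19% lower and 36.9% higher, near the 17.6% and 42.2% of all tested genes. After TMM scaling 27 (32.1%) were lower and 13 (15.5%) higher, against 24.2% and 19.8% of all tested genes.

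Ligands were at the limit of the data. IGF1 averaged 0.147 FPKM in siOXTR and 0.103 FPKM in siControl, and IGF2 0.070 FPKM in siOXTR and 0.117 FPKM in siControl. IGFALS, which encodes the acid-labile subunit of circulating IGF complexes, averaged 0.250 FPKM in siOXTR and 0.143 FPKM in siControl. INSRR, the orphan receptor related to INSR, was listed at 0 in 5 of the 6 libraries. None of these was tested. Of the IGF2 mRNA binding proteins, which bind IGF2 and other transcripts, IGF2BP2 averaged 41.8 ± 1.14 FPKM in siOXTR and 48.5 ± 1.86 FPKM in siControl (SD, n = 3 each), a fall of 0.21 on the log2 scale (adjusted p = 0.00477, limma). IGF2BP3, with a log2 fold change of 0.12, did not pass, although it did without siControl replicate 1.

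All 5 tested genes of the list of proteases that cut binding proteins, and their inhibitors, fell (median log2 fold change -0.91), against 17.6% of all tested genes. Of the 5, 4 are in the predicted secreted or membrane class, in which 46% fell. ADAM9, a membrane metalloprotease, averaged 16.7 ± 1.10 FPKM in siOXTR and 68.5 ± 3.54 FPKM in siControl (SD, n = 3 each). HTRA1, a secreted serine protease, averaged 1.23 ± 0.0586 FPKM in siOXTR and 4.13 ± 0.529 FPKM in siControl. CTSD, the lysosomal protease cathepsin D, averaged 290 ± 8.46 FPKM in siOXTR and 547 ± 35.4 FPKM in siControl. PAPPA, which cuts IGFBP4, and STC2, an inhibitor of PAPPA, had log2 fold changes of -0.36 and -0.77 (adjusted p = 0.00305 and 3.29e-07, limma). Thus the protease, its inhibitor and its substrate IGFBP4 were all lower in siOXTR.

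Of 14 tested genes that process the receptor precursors or sort mannose-6-phosphate cargo with IGF2R, 7 fell, 3 rose and 4 did not pass (median log2 fold change -0.18). These are 50% lower and 21.4% higher, against 17.6% and 42.2% of all tested genes. SORT1, the sorting receptor sortilin, averaged 11.9 ± 0.369 FPKM in siOXTR and 28.7 ± 2.50 FPKM in siControl (SD, n = 3 each). FURIN, a proprotein convertase that cuts the IGF1R and INSR precursors, averaged 11.5 ± 0.975 FPKM in siOXTR and 21.9 ± 2.28 FPKM in siControl. M6PR, the smaller, cation-dependent mannose-6-phosphate receptor, averaged 29.5 ± 2.60 FPKM in siOXTR and 53.4 ± 1.95 FPKM in siControl. The M6PR log2 fold change of -0.84 was smaller in size than the -1.85 of IGF2R. All 7 falls were among the 9 list genes in the predicted secreted or membrane class, in which 46% of all tested genes fell. The 3 rises (GGA1, GGA3 and VPS35, of cytosolic coat and retromer proteins) were not in that class. After TMM scaling 8 of the 14 (57.1%) were lower and 1 (7.14%) was higher, against 24.2% and 19.8% of all tested genes.

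Downstream of the receptors the shares of calls were near those of tested genes without a predicted segment. Over the 4 signalling lists 28 of 62 tested genes (45.2%) rose and 2 (3.23%) fell, and 56 of the 62 lie outside the secreted or membrane class. The shares were 42.2% higher and 17.6% lower over all tested genes, and 51% higher and 6.03% lower among genes without a predicted segment, so these counts are not a result about the pathway. After TMM scaling 19.4% were higher and 19.4% lower, against 19.8% and 24.2% of all tested genes. Of 20 tested receptor-proximal adaptors and inhibitors 11 (55%) rose and none fell as deposited, near the shares of genes without a segment, while 2 were higher and 4 lower after TMM scaling. SHC1, an adaptor that links receptors to RAS, had a log2 fold change of 0.33, NEDD4, a ubiquitin ligase, 0.34, and SOCS1, a cytokine signalling inhibitor, 0.34 (adjusted p = 0.000893, 0.000467 and 0.00877, limma). SOCS1 did not pass after TMM scaling (log2 fold change 0.23, adjusted p = 0.0651, limma). The number of rises in this list was 7 without siOXTR replicate 2 and 6 without siOXTR replicate 3, and 1 gene was called lower without siControl replicate 1 or 3.

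Of 16 tested PI3K and AKT kinases and phosphatases 6 (37.5%) rose, 1 (6.25%) fell and 9 did not pass. Of all tested genes 42.2% were higher and 17.6% lower. After TMM scaling 3 (18.8%) were higher and 3 (18.8%) lower, against 19.8% and 24.2% of all tested genes. PIK3R3, a regulatory subunit of PI3K, averaged 19.3 ± 0.583 FPKM in siOXTR and 11.7 ± 0.539 FPKM in siControl (SD, n = 3 each). TRIB3, a pseudokinase that binds AKT, averaged 47.5 ± 0.560 FPKM in siOXTR and 33.0 ± 2.27 FPKM in siControl. Both passed after TMM scaling, at 0.56 and 0.39 on the log2 scale. INPPL1, the phosphatase SHIP2, changed by 0.28 on the log2 scale, and missed the threshold after TMM scaling (0.16, adjusted p = 0.0776, limma). The 1 fall, PIK3CD (log2 fold change -0.22), was not called without siControl replicate 2 or without siOXTR replicate 2. AKT1, at 82.4 FPKM in siOXTR and 81.5 FPKM in siControl, had a log2 fold change of 0.017 (adjusted p = 0.809, limma).

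Of 17 tested genes of the TSC and mTOR complexes and their targets 10 (58.8%) rose, none fell and 7 did not pass (median log2 fold change 0.24), against 42.2% of all tested genes and 51% of those without a segment higher. After TMM scaling 6 (35.3%) were higher, against 19.8% of all tested genes. TBC1D7, a subunit of the TSC complex, averaged 10.2 ± 1.28 FPKM in siOXTR and 6.72 ± 0.739 FPKM in siControl (SD, n = 3 each). MLST8, a subunit shared by both mTOR complexes, averaged 25.6 ± 0.590 FPKM in siOXTR and 17.7 ± 1.19 FPKM in siControl. RPS6KB2, an S6 kinase, averaged 35.5 ± 2.51 FPKM in siOXTR and 25.2 ± 2.85 FPKM in siControl. The 3 genes also passed after TMM scaling, at 0.42, 0.39 and 0.36 on the log2 scale.

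Of 9 tested FOXO factors and FOXO target genes 1 (11.1%) rose, 1 (11.1%) fell and 7 did not pass. Over all tested genes 42.2% were higher and 17.6% lower. All 9 lack a predicted segment, and of tested genes without one 51% were higher and 6.03% lower. FOXO4 averaged 3.28 ± 0.0902 FPKM in siOXTR and 2.47 ± 0.312 FPKM in siControl (SD, n = 3 each), and rose by 0.31 on the log2 scale (adjusted p = 0.00621, limma). CCNG2, a cyclin gene induced by FOXO factors, had a log2 fold change of -0.17 (adjusted p = 0.0159, limma) and was not called without siOXTR replicate 3 (-0.15, adjusted p = 0.0672, limma). Without siControl replicate 2 there were 2 genes lower, and without siControl replicate 3 there were 2 higher. FOXO1 was below 1 FPKM. IRS2 and INSR, which are themselves known FOXO targets, had log2 fold changes of 0.13 and -0.70. After TMM scaling 5 of the 9 (55.6%) were lower and 1 (11.1%) was higher, against 24.2% and 19.8% of all tested genes.

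**Figure D5:**
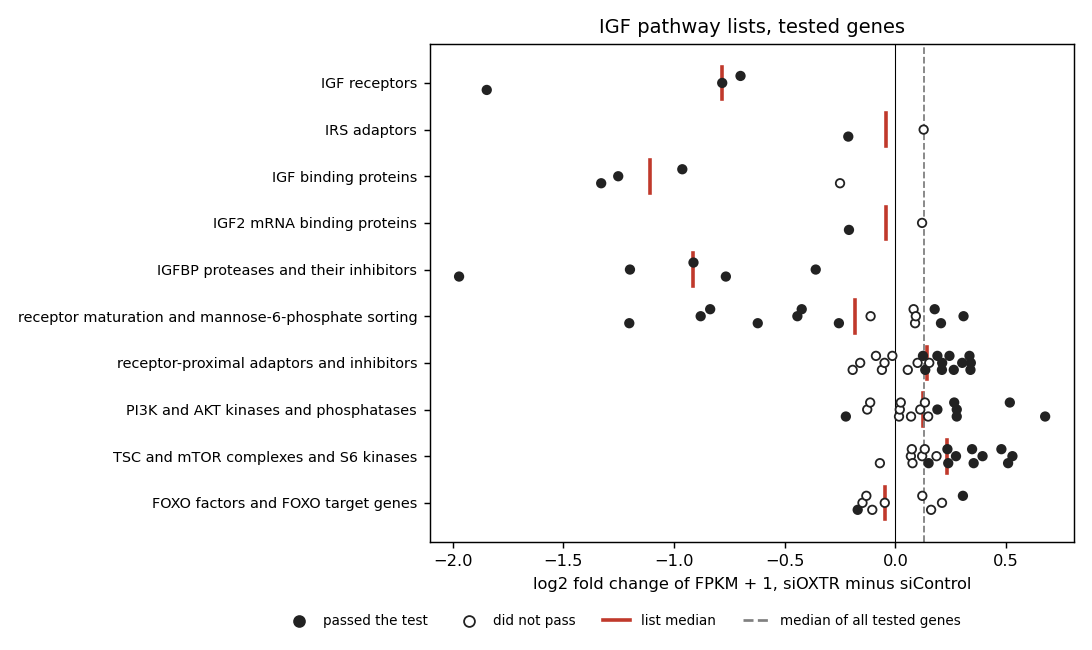
Tested genes of the IGF pathway lists. The x axis is the log2 fold change of FPKM + 1, siOXTR minus siControl; each point is a gene (filled where it passed the test), red bars are list medians and the dashed line is the median of all tested genes at 0.13. The receptor, binding protein and protease lists have medians of -0.78, -1.11 and -0.91, and the 4 lists of signalling genes downstream of the receptors have medians between -0.048 and 0.24.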

How the data were processed

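The authors deposited an FPKM value for each gene of a library, per the file headers. The reads were mapped to GRCh38 (p13), per the submitters' processing notes, and BGISEQ-500 protocols were used for the libraries, per the labels. Not given in the sources used here are the aligner, the quantifier, the annotation and the use of strand. Low values were searched for steps of whole fragments, but coherence reached just 0.15 to 0.213 of 1, so depth stayed unknown.

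The test was limma 3.58.1 (R 4.3.3) on log2(FPKM + 1), run on genes averaging 1 FPKM or more. Group was the only term, with a trended robust prior, two-sided p-values and Benjamini-Hochberg over all 11550 tested genes (threshold 0.05). The procedure was tested on simulated data with few changed genes, balanced in direction. That simulation does not cover a contrast with as many and as lopsided calls as this one. Folds written "-fold" are ratios of mean FPKM. The members and lists were chosen with earlier results of these data known. Beside the members and OXTR, the named genes are the measured relatives of the members and up to 3 called genes per list with the largest change. The 3 genes most like each called member are named too. PAPPA, STC2, AKT1, PIK3CD, IGF2BP3, FOXO1 and the 3 rises of the sorting list were named after their values were seen. Genes given as errors of the class prediction were picked for their class. Alternatives were TMM scaling (unweighted trimmed mean), median centring, a pseudocount of 0.1, no filter, a filter of 5 FPKM, a plain prior, a replicate block and leaving out each library. The predicted class used proteins translated from GENCODE release 29, in place of RefSeq proteins, with hydropathy of at least 2.2 over 9 residues in the first 35 or 1.7 over any 19 residues, and tail-anchored proteins (45 residues) set apart. Gene coordinates come from GENCODE release 29.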

Additional observations from a re-analysis of the deposited data

How the results depend on the processing

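Of the 8 tested members, IGF1R, INSR, IGF2R, IGFBP3 and IGFBP4 fell and passed the threshold under every alternative that tested them, and IRS2 passed under none. A filter of 5 FPKM left INSR untested. IRS1 passed under all except 1, with log2 fold changes of -0.24 to -0.18 over the left-out libraries. IGFBP6 gained the call after TMM scaling (-0.36), after median centring (-0.29) and with a replicate block (-0.25, adjusted p = 0.0102, limma), and ranged from -0.33 to -0.11 over the left-out libraries. TMM scaling gave 2282 genes higher and 2794 lower, against 4869 and 2036 as deposited. The replicate numbers were not taken as pairing the libraries, because deviations of same-numbered libraries from their group means correlated at 0.107, 0.00421 and 0.160. With the block, exact paired sign-flip tests of the 4 ratios gave p = 0.25, the smallest that 3 pairs allow. The 4 ratios and the IGFBP sum kept their direction without any 1 library. Of 257 alternative values for OXTR and 19 other named genes, 254 kept their direction and side of the threshold, and SOCS1, INPPL1 and CCNG2 each lost the call once. The depth is unknown, so no counting error can be given for the low values of INSR, IGFBP2 and the ligands.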
